A study of Mus musculus with 6 samples.

Results

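The genes of the mitochondrial respiratory chain and ATP synthase were followed in fat of C57BL/6 mice, an inbred laboratory strain, before grafting and 7 days after grafting. Members were the protein-coding genes of the deposited table whose symbols belong to the subunit families of complexes I to V, to cytochrome c or to the mitochondrial chromosome, with the assembly factors and the coupling factor that carry the same symbol prefixes. Ndufa4l2 and Cox8b were left out by name. The table lists 12163 genes, and 87 of them are members, 75 encoded in the nucleus and 12 in mitochondrial DNA. The same names find 115 genes in the GENCODE M21 annotation. The other 28 were not analysed here: Atp5e, Atp5g2, Atp5k, Atp5l, Atp5mpl, a second entry named Atp5o, Cox10, Cox11, Cox14, Cox16, Cox17, Cox18, Cox6b2, Cox7a1, Cox7b2, Cox8c, Ndufa1, Ndufa11, Ndufa13, Ndufa2, Ndufa3, Ndufa8, Ndufaf2, Ndufaf6, Ndufaf8, Ndufb2, Ndufs6 and mt-Atp8.

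Both groups were wild-type animals, with 3 libraries of total RNA each, which the series calls biological replicates. No label used here gives an agent, transgene, depot, graft site, sex or age, or says whether animals were pooled. Values are normalized counts, that is, the reads of a gene after division by a library's size factor, and the listed genes summed to between 12846005 and 15443409 per library. All 87 members reached 10 normalized counts in at least 3 libraries and were tested. Because the table holds genes already selected for a difference (unadjusted p under 0.05 for 99.2% of the 10854 tested), 80.4% of all tested genes were called, 39.2% lower and 41.3% higher in grafts. Counts of members are read against these shares.

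The respiratory chain passes electrons from NADH (complex I) and succinate (complex II) through ubiquinone, complex III and cytochrome c to oxygen at complex IV, and the proton gradient built on the way drives ATP synthase, complex V. Complex II is encoded entirely in the nucleus, whereas the other complexes join nuclear subunits with subunits translated inside the organelle from the mitochondrial chromosome. That chromosome is transcribed as long polycistronic RNAs that are cut into single messages, so its genes share promoters while the nuclear genes each have their own. In fat the chain is best known for oxidizing fatty acids and for heat production in brown and beige adipocytes.

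Most respiratory chain genes were lower in grafts, and the 7 abundant genes of the mitochondrial chromosome had a lower median log2 fold change (-1.79) than the nuclear members (-0.75), a difference that was not tested. The other 5 mitochondrial genes, whose levels are uncertain because nuclear copies share their sequence, had a median of -0.81. Of 75 nuclear members, 59 fell (limma on log2 values, adjusted p under 0.05, against 39.2% of all tested genes called lower), 1 rose and 15 did not pass the test. The nuclear log2 fold changes, grafts over before grafting, had a range from -1.76 to 1.37, and the median over all tested genes was 0.28. Of 12 mitochondrially encoded members, 11 fell, none rose and mt-Co3 did not pass the test, with a median of -1.63 and a range from -2.47 to -0.74. The median nuclear member kept 58.8% of its mean level before grafting and the median mitochondrial member 31.9%. All 3 grafts lay below all 3 libraries before grafting for 69 nuclear and all 12 mitochondrial members, where 48.0% of tested genes did so, and above them for 2 nuclear members, where 49.6% did so.

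**Figure D1:**
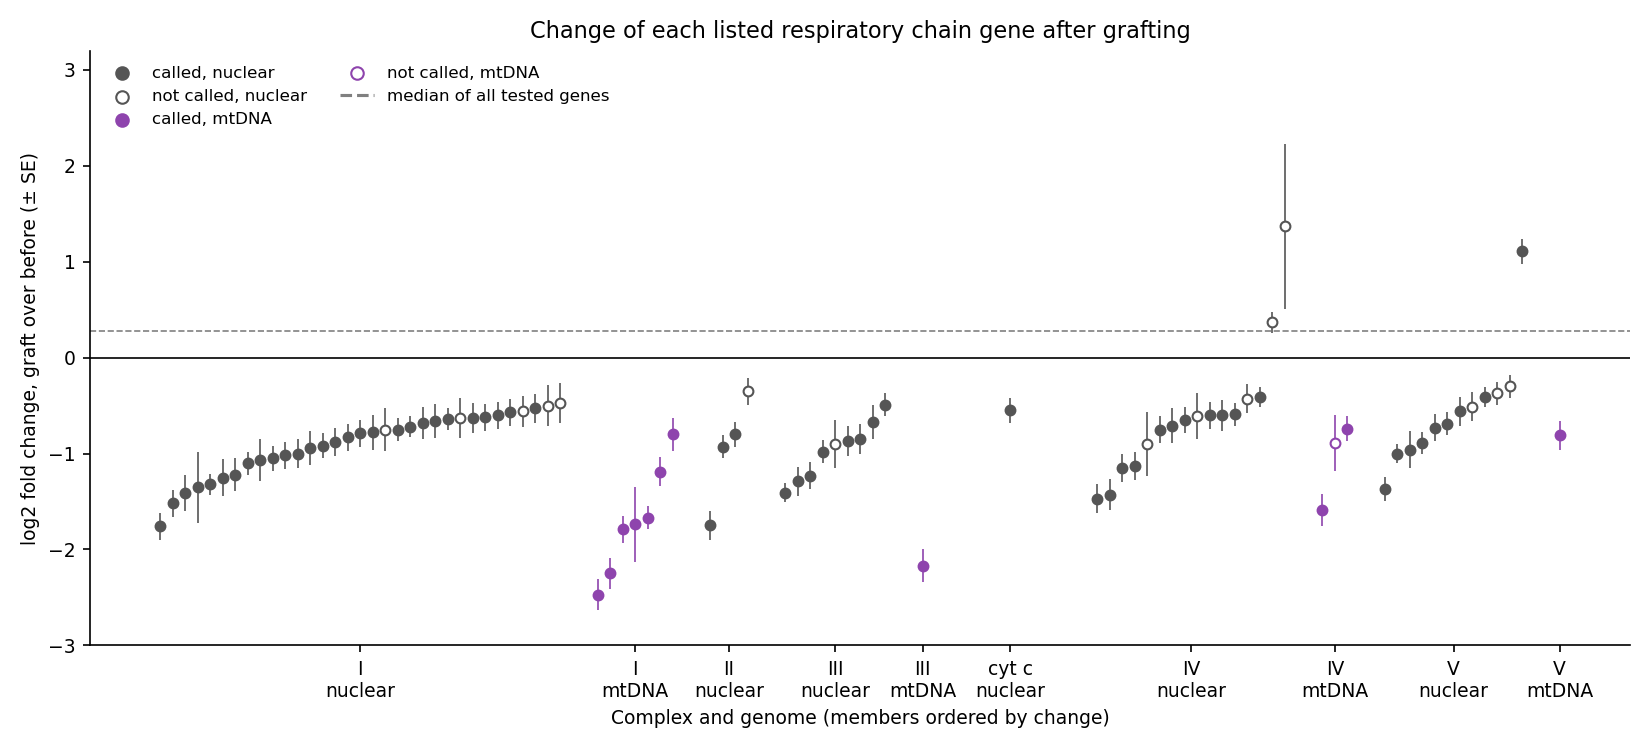
Each point is 1 of the 87 members, grouped along the x axis by complex and genome, and the y axis is its log2 fold change, grafts over before grafting, with the standard error as a bar. Filled points passed the test, open points did not, and the dashed line is the median of all tested genes at 0.28. The 12 mitochondrially encoded genes lie between -2.47 and -0.74, and only Atp5g1 in complex V is a filled point above 0.

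Markers of cell types differed strongly between the same libraries. The summed level of 8 adipocyte markers was 297255, 419136 and 272485 in libraries 1, 2 and 3 before grafting and 22032, 7450 and 4972 in grafts 1, 2 and 3, and 8 of 8 fell (median -5.75 on the log2 scale). Of the other markers, 6 of 6 for macrophages, 5 of 5 for neutrophils and 5 of 5 for fibroblasts rose. For T and B cells 5 of 5 fell, as did 4 of 4 tested for brown fat. Of these brown fat markers, Cidea, Ppara and Cox8b passed the filter for testing only through the libraries before grafting, which favours a fall. For endothelium 5 were chosen, and 2 of the 3 in the table fell. The 6 skeletal muscle markers chosen were not analysed here. Summed levels were 6089 to 7407 before grafting and 51168 to 59349 in grafts for macrophages, and 123424 to 161478 and 808622 to 1329474 for fibroblasts. Neutrophil markers summed to 372 to 577 and 39718 to 75796, T and B cell markers to 4010 to 7977 and 120 to 337. The brown fat markers, of which Cidea is at 0 in grafts 1 and 2, summed to 1907 to 4226 and 33.0 to 60.3. Ucp1, the brown fat marker that was not tested, had only 8.87, 9.12 and 24.6 before grafting and 0.00, 1.94 and 0.99 in grafts. Whether brown fat cells were present was not tested. In bulk tissue, fewer cells of a type and less RNA per cell cannot be told apart, and the part of cell composition in the results on the respiratory chain was not tested.

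Library by library, the nuclear members together took 1.31%, 1.57% and 1.28% of the listed total before grafting and 0.730%, 0.623% and 0.655% in grafts. The mitochondrial members took 4.84%, 5.55% and 6.92% before grafting and 1.54%, 1.45% and 1.61% in grafts. Both shares separate the groups without overlap, and the mean was 2.07-fold higher before grafting for the nuclear genome and 3.76-fold higher for the mitochondrial one. Within a library, where scaling cancels, the mitochondrial sum per 100 of the nuclear sum was 369, 354 and 540 before grafting and 211, 233 and 245 in grafts. The group means were 421 ± 103 and 230 ± 17.4 (SD, n = 3), and the lowest library before grafting stood above the highest graft. With sums per kilobase of gene length the means were 591 and 309, and without mt-Co1 and Atp5b, the most abundant member of each genome, 275 and 129.

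The genomes did not peak in the same library. Library 2 before grafting was the highest of its group for 71 of 75 nuclear members, and it also had the highest adipocyte marker sum. Library 3 before grafting was the highest for 11 of 12 mitochondrial members, although its adipocyte marker sum was the lowest of the group. Among grafts, graft 1 was the highest for 54 of 75 nuclear members and had the highest adipocyte marker sum. Without library 2 the nuclear median was -0.62, and without library 3 the mitochondrial median was -1.36. The difference between the medians, -0.88 with all libraries, was -0.53 without library 3. The part of adipocyte content in this order of libraries was not tested.

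**Figure D2:**
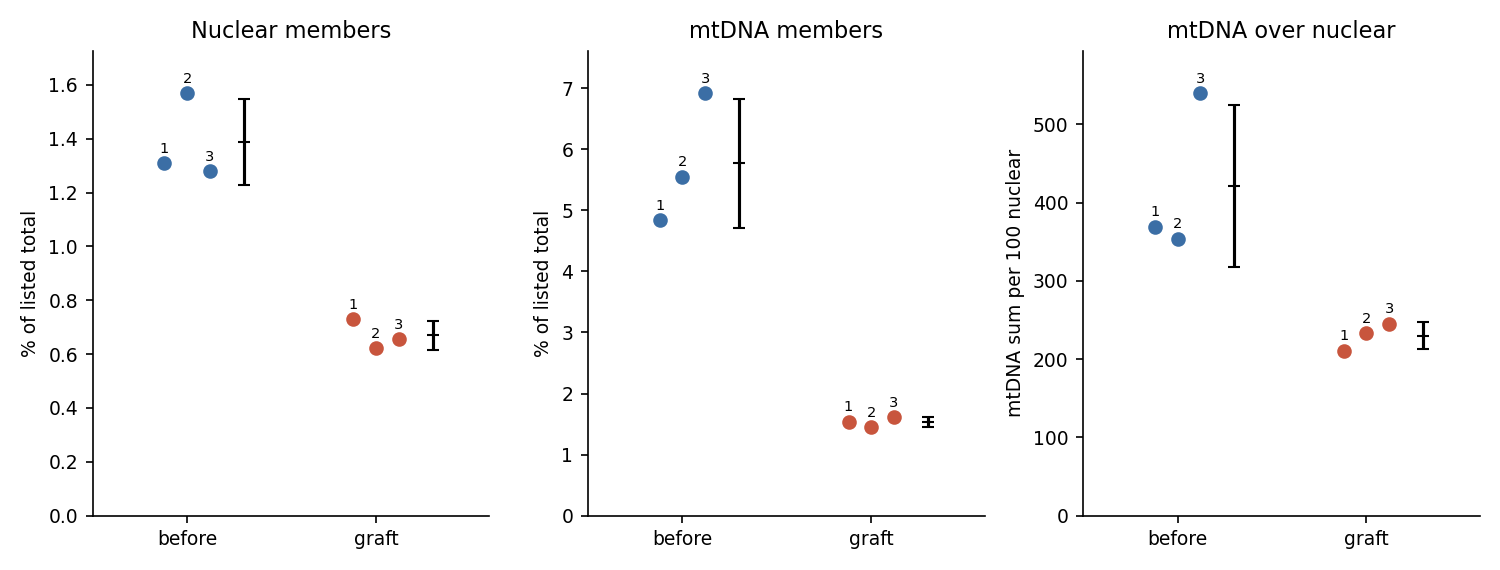
The panels show, for each numbered library (x axis, before grafting and graft), the summed nuclear members and the summed mitochondrially encoded members as a percentage of the listed total, and the mitochondrial sum per 100 of the nuclear sum; the bars beside the points are the mean ± SD of 3 libraries. Library 2 is the highest before grafting in the nuclear panel at 1.57%, and library 3 in the mitochondrial panel at 6.92% and in the panel of the ratio at 540.

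Nuclear respiratory genes are scattered over the chromosomes and are known for promoters that carry sites for NRF1 and for the ETS factor GABPA, and less often for YY1 and ERR. RefSeq promoter windows (GRCm38.p6, 250 bases before to 50 after a start) were matched to 62 of 75 nuclear members and searched on both strands. The NRF1 word, GCGCA and GCGC with any base between them, stood in 14 of 62 (22.6%), against 7.2% of 17492 protein-coding genes, and the ETS word CCGGAAG in 15 (24.2%), against 12.9%. The YY1 word AAGATGGCG stood in 6 (9.7%, against 2.1%) and the ERR word TCAAGGTCA in 2 (3.2%, against 0.4%). A YY1 word of 11 letters was searched first and stood in 3 (4.8%, against 1.1%), and the word of 9 letters replaced it after those counts were seen. These are counts of letters in a window and not sites of binding. Members with and without the NRF1 word had median log2 fold changes of -0.77 and -0.70, and those with and without the ETS word -0.64 and -0.75, differences that were not tested.

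Of 14 members with the NRF1 word 11 fell, and of 48 without it 37 fell. The 150 bases before the start are shown for 4 members that fell, of which Sdha and Cox6a1 were chosen because they hold words and Ndufab1 and Atp5b hold none, and for the 2 members whose grafts all lay above all libraries before grafting, Atp5g1 and Cox7a2l. The stretches are examples, and the counts over all matched members are those given above. All are read 5′ to 3′ on the gene's own strand, with the NRF1 and ETS words in capitals (in Cox6a1 the last is the ETS word read on the other strand). The words do not overlap each other in these stretches, and a stretch with no capitals holds none of the 4.
Sdha, chr13:74350241-74350390, minus strand: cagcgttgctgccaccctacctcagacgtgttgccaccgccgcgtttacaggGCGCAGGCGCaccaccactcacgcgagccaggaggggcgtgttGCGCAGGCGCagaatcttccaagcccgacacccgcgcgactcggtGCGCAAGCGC
Cox6a1, chr5:115348959-115349108, minus strand: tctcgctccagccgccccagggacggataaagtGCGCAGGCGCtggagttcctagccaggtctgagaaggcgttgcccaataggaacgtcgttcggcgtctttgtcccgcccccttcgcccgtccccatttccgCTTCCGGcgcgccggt
Ndufab1, chr7:122101849-122101998, minus strand: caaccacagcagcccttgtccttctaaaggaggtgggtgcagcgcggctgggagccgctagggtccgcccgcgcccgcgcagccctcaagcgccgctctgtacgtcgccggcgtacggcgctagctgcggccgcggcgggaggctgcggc
Atp5b, chr10:128083157-128083306, plus strand: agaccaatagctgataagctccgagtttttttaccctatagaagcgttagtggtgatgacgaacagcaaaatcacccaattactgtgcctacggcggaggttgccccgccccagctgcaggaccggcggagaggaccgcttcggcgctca
Atp5g1, chr11:96075632-96075781, minus strand: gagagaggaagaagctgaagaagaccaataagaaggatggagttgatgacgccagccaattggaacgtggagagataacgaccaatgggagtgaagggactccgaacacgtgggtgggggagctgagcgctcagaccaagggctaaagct
Cox7a2l, chr17:83514334-83514483, minus strand: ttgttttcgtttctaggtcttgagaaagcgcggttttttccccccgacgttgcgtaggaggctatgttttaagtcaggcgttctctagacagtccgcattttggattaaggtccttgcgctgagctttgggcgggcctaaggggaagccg
The Sdha stretch holds the NRF1 word 3 times, beginning 98, 55 and 10 bases before the start, and the Cox6a1 stretch holds it once, beginning 117 bases before the start, with the ETS word 16 bases before it. None of the 4 words is in the stretches of Ndufab1 (-1.76, the largest nuclear fall) and Atp5b (-1.37), nor in those of Atp5g1 and Cox7a2l. Ndufb4, with the NRF1 word 3 times in its window like Sdha, changed by -0.78, where Sdha changed by -1.75.

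Complex I, the NADH dehydrogenase that feeds electrons to ubiquinone, had 33 nuclear members listed, of which 28 fell, and their median was -0.79. Core subunits, which carry the flavin and iron-sulfur clusters or line the electron path, were among those that fell. Ndufs1, which holds iron-sulfur clusters at the entry of electrons, had 2471, 3066 and 2705 normalized counts before grafting and 1170, 1043 and 1072 in grafts, and fell by 1.32 on the log2 scale (SE 0.11, adjusted p = 6.72e-05). Ndufv1, the flavin subunit that binds NADH, changed by -1.22, and Ndufs7, Ndufs3, Ndufv2 and Ndufs8 by -1.05, -0.92, -0.75 and -0.64. Each of these 6 passed the test and was lower in every graft than in any library before grafting. They are given by role, named after their values were seen.

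Among 21 accessory subunits of complex I, 18 fell with a median of -0.79. Ndufab1, the mitochondrial acyl carrier protein, which also serves fatty acid and lipoic acid synthesis in the organelle, had 1354, 1928 and 1688 normalized counts before grafting and 516.2, 444.2 and 495.6 in grafts. The groups did not overlap, and its fall of 1.76 on the log2 scale (SE 0.14, adjusted p = 6.46e-05) was the largest of any nuclear member in this fit. Ndufa10 (2385, 3315 and 2787 against 1074, 964.9 and 903.1) fell by 1.52 (adjusted p = 1.08e-04). Ndufb9, at 971.3, 1414 and 983.6 against 470.0, 330.7 and 462.0, fell by 1.41 (adjusted p = 0.00121). At the other end, Ndufc1 went from 515.7, 884.4 and 502.6 to 432.9, 473.3 and 418.4, a log2 fold change of -0.47 that did not pass the test (adjusted p = 0.301). Ndufb6 at -0.50 (adjusted p = 0.213) and Ndufv3 at -0.63 (adjusted p = 0.0956) did not pass either, and for Ndufv3 graft 1 (1047) reached above library 3 before grafting (1042). The remaining called accessory subunits lay between -1.35 and -0.53. Ndufa12, the lowest of these, had a single high library (862.1 in library 2, against 332.3 and 294.1 in the others before grafting) and had a log2 fold change of -0.86 without it.

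Of 5 complex I assembly factors, 3 fell, with a median of -0.62. Ndufaf1, which helps to build the membrane arm, fell by 1.25 (adjusted p = 0.00224), from 318.5, 414.3 and 377.7 to 195.8, 143.5 and 130.6 normalized counts. Ndufaf4 fell by 0.62 and Ndufaf7, a methyltransferase, fell by 0.60. Ndufaf5 at -0.75 (adjusted p = 0.0573) and Ndufaf3 at -0.56 (adjusted p = 0.0508) missed the threshold, although both were lower in every graft.

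Complex II, succinate dehydrogenase, belongs to the citric acid cycle as well as to the chain. Its flavoprotein Sdha (13, 74322254 to 74350280, GRCm38) had 10031, 13577 and 9432 normalized counts before grafting and 3451, 3260 and 3024 in grafts, a log2 fold change of -1.75 (adjusted p = 7.59e-05). The iron-sulfur subunit Sdhb had 2549, 3182 and 2523 against 1534, 1407 and 1384, and fell by 0.93 (adjusted p = 6.82e-04). The groups did not overlap for either gene, but they moved by different amounts: Sdha per 100 Sdhb was 394, 427 and 374 before grafting and 225, 232 and 219 in grafts. Of the membrane anchors, Sdhc fell by 0.80 (adjusted p = 0.00294), and Sdhd, at -0.35 (1960, 2630 and 1823 against 1632, 1659 and 1663), did not pass the test (adjusted p = 0.181). Complex II made up 9.76%, 9.72% and 9.18% of the nuclear sum before grafting and 7.48%, 7.86% and 7.60% in grafts.

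Complex III, which passes electrons from ubiquinol to cytochrome c, had 9 nuclear members, of which 8 fell with a median of -0.90. Uqcrc2, a large core protein on the matrix side, had 2927, 3635 and 3217 normalized counts before grafting and 1250, 1215 and 1195 in grafts. It fell by 1.41 (SE 0.10, adjusted p = 3.64e-05). The catalytic subunits fell by similar amounts: the Rieske iron-sulfur protein Uqcrfs1 changed by -1.29 (2862, 4154 and 2930 against 1447, 1347 and 1220) and cytochrome c1, Cyc1, by -1.23 (2718, 3707 and 2708 against 1406, 1270 and 1190). Uqcrh, the hinge protein at the cytochrome c docking site, had the smallest change, -0.49, with 2106, 2565 and 1871 against 1540, 1542 and 1549. Uqcr11, at -0.90 (1252, 1989 and 948.2 against 857.7, 631.3 and 674.6), lay just above the threshold (adjusted p = 0.050). Uqcrc1, Uqcr10, Uqcrb and Uqcrq fell, with values of -0.98, -0.87, -0.85 and -0.67. Cytochrome c itself, Cycs, the mobile carrier between complexes III and IV, fell by 0.55 (1575, 2176 and 1693 against 1268, 1233 and 1170, adjusted p = 0.0203).

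Complex IV, cytochrome c oxidase, reduces oxygen to water, and several of its nuclear subunits exist as tissue isoforms. Of 16 nuclear members, 11 fell, with a median of -0.63 and a range from -1.47 to 1.37. Ndufa4, first assigned to complex I and now counted as a subunit of complex IV, had the largest fall of them (-1.47, from 2589, 3597 and 2858 to 1071, 947.5 and 1233, adjusted p = 2.11e-04). Cox6a1 fell by 1.15 (5150, 7368 and 5414 against 2949, 2596 and 2442) and Cox8a fell by 1.13 (4202, 5651 and 4018 against 2308, 2081 and 1910). Cox19, a copper-related assembly factor, fell by 1.43 (adjusted p = 3.81e-04), from 633.0, 934.0 and 787.9 to 300.3, 258.0 and 306.7, and Cox15, which makes the heme of the enzyme, fell by 0.41 (adjusted p = 0.0315). Cox4i1, Cox6b1, Cox6c, Cox7c, Cox5a and Cox7a2 fell, with values of -0.75, -0.71, -0.65, -0.60, -0.60 and -0.59. Cox5b, at -0.61 (adjusted p = 0.170), and Cox7b, at -0.43 (adjusted p = 0.116), did not pass, and the groups overlapped for Cox5b. Complex IV made up 21.1%, 21.8% and 21.2% of the nuclear sum before grafting and 24.5%, 23.8% and 24.4% in grafts, a larger share in every graft.

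Of 3 isoforms or relatives of complex IV subunits, Cox7a2l was higher in all grafts than in any library before grafting. The levels of Cox4i2 and Cox6a2 overlapped between the groups. Cox7a2l, a relative of Cox7a2 known for joining complexes III and IV into supercomplexes, had 2235, 2154 and 1805 normalized counts before grafting and 2868, 2543 and 2598 in grafts. All grafts were above all libraries before grafting, yet its log2 fold change of 0.37 missed the threshold (adjusted p = 0.0582), and it was -0.37 when libraries were scaled to their ribosomal protein genes. Per 100 Cox7a2, a ratio that scaling cannot move, it stood at 161, 116 and 120 before grafting and 268, 246 and 254 in grafts. Cox4i2, the isoform tied to low oxygen, had 79.9, 133.7 and 110.2 against 86.4, 41.7 and 48.5, which overlapped (-0.90, adjusted p = 0.134). Its ratio to Cox4i1 also overlapped, between 0.991 and 1.76 per 100 in grafts and between 1.21 and 1.62 before grafting. Cox6a2, the isoform of heart and skeletal muscle, had 12.8, 8.10 and 7.87 before grafting and 12.1, 10.7 and 124.6 in grafts. Graft 3 alone was high, and the log2 fold change of 1.37 (adjusted p = 0.774) was 0.25 without it.

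Complex V, ATP synthase, had 12 nuclear members, of which 8 fell and 1 rose, with a median of -0.62. The 4 listed subunits of F1, the catalytic head with its central stalk, all fell, with a median of -0.95. The catalytic beta subunit Atp5b, the most abundant nuclear member, had 23488, 30493 and 24570 normalized counts before grafting and 10853, 9883 and 9438 in grafts, and fell by 1.37 (SE 0.13, adjusted p = 1.31e-04). Its partner in the head, the alpha subunit Atp5a1, had 13746, 17111 and 13881 against 8285, 7965 and 7784 and fell by 0.89 (adjusted p = 7.70e-04). Atp5b per 100 Atp5a1 went from 171, 178 and 177 to 131, 124 and 121, in RNA counts not corrected for gene length. Per kilobase, mean levels went from 6180 to 2374 for Atp5b and from 4757 to 2555 for Atp5a1. Levels of RNA do not give the number of subunits in the head. The gamma subunit Atp5c1 fell by 1.00 (adjusted p = 2.38e-04), the delta subunit Atp5d fell by 0.56 (adjusted p = 0.0400), and Atp5s, known as coupling factor B, fell by 0.96 (130.2, 127.6 and 137.7 against 71.3, 73.7 and 58.4, adjusted p = 0.00912). The call of Atp5d held in only 1 of 6 fits with 1 library left out.

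In the membrane part and peripheral stalk of ATP synthase, 3 of 7 nuclear members fell and 1 rose, with a median of -0.41. The share that fell is near the 39.2% of all tested genes called lower. The difference from F1 was not tested. Atp5g3, Atp5j2 and Atp5h fell, with values of -0.73, -0.69 and -0.41. The call of Atp5h held in only 1 of 6 fits with 1 library left out. Atp5o at -0.51 (adjusted p = 0.0524), Atp5j at -0.37 (adjusted p = 0.0813) and Atp5f1 at -0.30 (adjusted p = 0.183) did not pass the test. Atp5g1 (11, 96068852 to 96075670, GRCm38) was the 1 member called higher. It encodes subunit c of the rotating ring, and Atp5g3 encodes the same mature protein with another import sequence. Atp5g1 had 348.1, 315.1 and 302.0 normalized counts before grafting and 715.1, 611.9 and 759.7 in grafts. All grafts were above all libraries before grafting, by 1.11 on the log2 scale (SE 0.13, adjusted p = 4.00e-04). It was called in every fit with 1 library left out, and stayed positive but was not called under ribosomal protein scaling (0.36, adjusted p = 0.238).

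Atp5g3 went the other way, from 3493, 4597 and 3191 to 2440, 2146 and 2145 normalized counts. Atp5g1 per 100 Atp5g3 therefore stood at 9.97, 6.85 and 9.46 before grafting and at 29.3, 28.5 and 35.4 in grafts, a 3.55-fold higher mean. Atp5g3 remained the more abundant of the pair in all 6 libraries: per kilobase, mean levels went from 1724 to 1029 for Atp5g3 and from 65.5 to 141.6 for Atp5g1. Of the 50-base words in Atp5g1 transcripts, 11.1% also occur in other annotated genes, 366 of them. The largest share, 6.9%, is with the processed pseudogene Gm10039. Its level was 189.3 to 262.4 normalized counts before grafting and 313.6 to 411.2 in grafts. How reads of words shared by Atp5g1 were assigned is unknown. Atp5g2, the other gene for subunit c, was not analysed here.

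**Figure D3:**
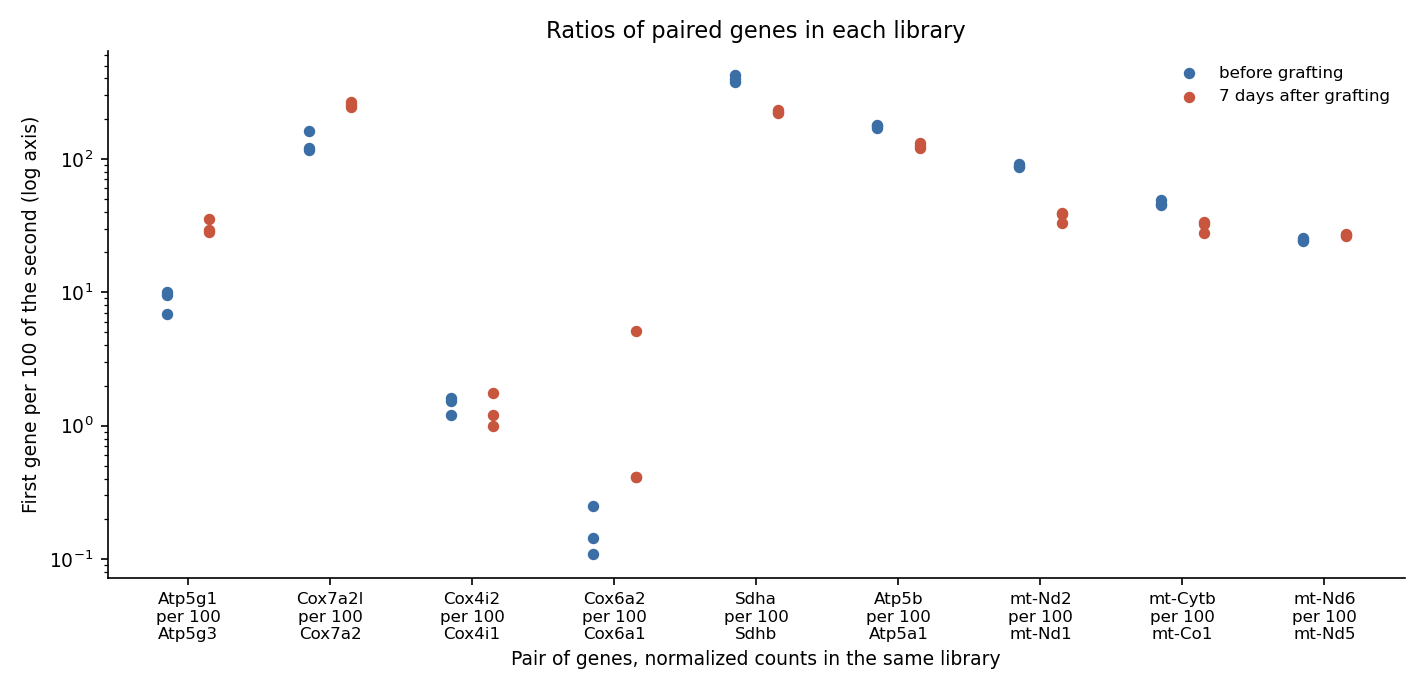
For 9 pairs of genes (x axis), each point is the level of the first gene per 100 of the second in 1 library, in normalized counts on a log axis, before grafting in blue and 7 days after grafting in red. The ratios of Atp5g1 to Atp5g3, Cox7a2l to Cox7a2, Cox6a2 to Cox6a1 and mt-Nd6 to mt-Nd5 are higher in all grafts. The low levels of Cox6a2 itself overlapped between the groups, with graft 3 alone high, while Cox6a1 fell. Those of Sdha to Sdhb, Atp5b to Atp5a1, mt-Nd2 to mt-Nd1 and mt-Cytb to mt-Co1 are lower in all grafts, and Cox4i2 to Cox4i1 overlaps.

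On the mitochondrial chromosome, 7 genes had over 1000 normalized counts in every library, and all 7 fell with a median of -1.79. mt-Nd2, a membrane subunit of complex I, had 45835, 64764 and 68294 before grafting and 9733, 10929 and 11158 in grafts. It fell by 2.47 (SE 0.16, adjusted p = 2.18e-05), which left 17.8% of its mean. mt-Nd4 (53817, 71117 and 79276 against 13100, 13954 and 15541) fell by 2.25 (adjusted p = 3.09e-05). mt-Cytb, the cytochrome b of complex III, fell by 2.17 (123919, 167480 and 184742 against 31324, 35463 and 38191, adjusted p = 5.35e-05). No graft reached the lowest library before grafting for any of them.

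The other abundant genes fell less steeply. mt-Nd5 had 57136, 67470 and 79844 against 18774, 19823 and 19990 and fell by 1.79 (adjusted p = 4.95e-05). mt-Nd6 had 14672, 16677 and 19324 against 5028, 5262 and 5493 and fell by 1.67 (adjusted p = 3.33e-05). It is the only member on the other strand, and without knowing whether counting used strand, its reads and antisense reads of the long transcript cannot be told apart. mt-Co1, the catalytic subunit of complex IV, had 271938, 340202 and 413709 against 112674, 109313 and 114349 and fell by 1.59 (adjusted p = 2.63e-04). mt-Nd1, the first message in the chromosome's numbering, had the smallest change of the 7 (-1.19, from 52481, 70351 and 76738 to 29291, 28498 and 28406, adjusted p = 7.62e-04). In grafts these 7 genes varied little between libraries, while library 1 was the lowest and library 3 the highest before grafting for each of them.

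Ratios between mitochondrial genes separated the groups. Per 100 mt-Nd1, mt-Nd2 stood at 87.3, 92.1 and 89.0 before grafting and at 33.2, 38.3 and 39.3 in grafts, although the genes are neighbours on the same strand (mt-Nd1 at 2751 to 3707, mt-Nd2 at 3914 to 4951). For mt-Nd4 the values were 103, 101 and 103 against 44.7, 49.0 and 54.7, and mt-Cytb per 100 mt-Co1 went from 45.6, 49.2 and 44.7 to 27.8, 32.4 and 33.4. mt-Nd6 per 100 mt-Nd5 moved little, from 25.7, 24.7 and 24.2 to 26.8, 26.5 and 27.5. mt-Co1 made up 43.8%, 42.5% and 44.8% of the mitochondrial sum before grafting and 51.0%, 48.8% and 48.8% in grafts. The changes did not follow the order of the genes along the chromosome: mt-Nd1, mt-Nd2 and mt-Co1 are the first 3 members and changed by -1.19, -2.47 and -1.59, and mt-Nd4, mt-Nd5, mt-Nd6 and mt-Cytb, the last 4, by -2.25, -1.79, -1.67 and -2.17.

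The remaining 5 mitochondrial members had far lower values, and they are nearly identical to nuclear copies of mitochondrial DNA. For each of mt-Co2, mt-Co3, mt-Atp6, mt-Nd3 and mt-Nd4l, at least 98.0% of the 50-base words occur in another annotated gene, against 0.0% for mt-Nd1, mt-Nd6 and mt-Cytb. Per kilobase their means before grafting were 455.7 to 892.1, where mt-Co1 had 221327 and mt-Nd1 69513. Their partners are unprocessed pseudogenes, such as Gm10925 for mt-Atp6, which had 693.2, 890.5 and 953.1 normalized counts before grafting and 339.5, 339.4 and 425.4 in grafts. How reads were shared among copies is not given in the sources used here. The levels of these 5 genes are therefore uncertain. Of the abundant genes, mt-Nd4 and mt-Co1 share 62.2% and 51.1% of their words, mt-Nd2 8.2% and mt-Nd5 7.6%.

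Of these 5 genes, 4 fell. mt-Nd4l (89.7, 88.1 and 228.2 against 41.2, 28.1 and 39.6) fell by 1.74 (adjusted p = 0.0166), and the call was lost without graft 2 (adjusted p = 0.0552). mt-Atp6 (315.5, 364.7 and 430.8 against 195.8, 209.5 and 222.6) fell by 0.81 (adjusted p = 0.00700), mt-Nd3 fell by 0.80 (206.1, 215.8 and 276.4 against 130.6, 139.6 and 126.6) and mt-Co2 fell by 0.74 (688.3, 553.1 and 589.2 against 396.7, 351.1 and 345.2). mt-Co3, at 262.3, 492.3 and 628.5 before grafting and 241.0, 230.8 and 228.5 in grafts, changed by -0.89 and did not pass the test (adjusted p = 0.0884). Its library 1 lay close to the grafts. Without that library its adjusted p was 0.00205.

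**Figure D4:**
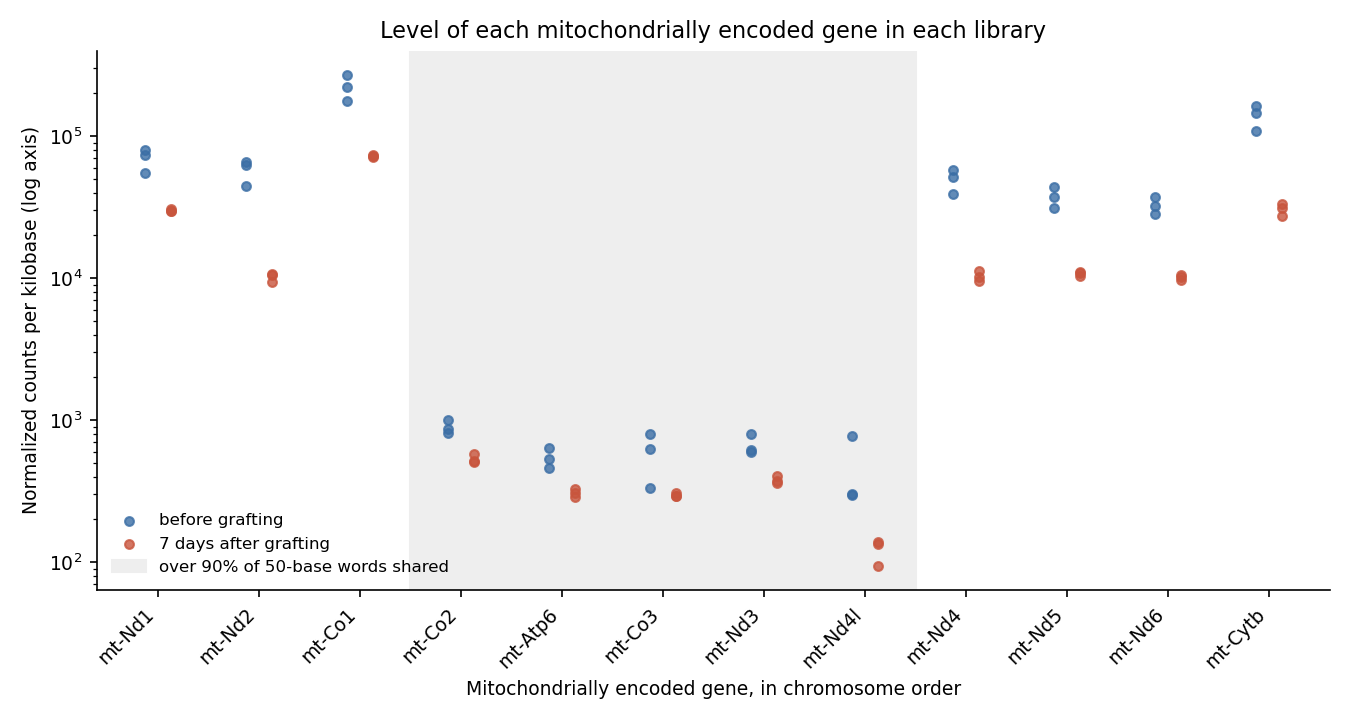
The x axis shows the 12 mitochondrially encoded members in chromosome order and the y axis their level in each library as normalized counts per kilobase of gene length, on a log axis, before grafting in blue and 7 days after grafting in red. The shaded 5 genes, with over 90% of their 50-base words shared with another gene, lie far below the other 7, and in all 12 the grafts lie below the libraries before grafting.

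Non-coding RNAs of the same chromosome changed in the same direction. Of 5 tested, 4 fell. mt-Rnr1, the small ribosomal RNA, had 4397, 5989 and 5614 normalized counts before grafting and 2808, 2967 and 3382 in grafts, and fell by 0.80 (adjusted p = 0.00398). Its level per 100 mt-Nd1 was 8.38, 8.51 and 7.32 before grafting and 9.59, 10.4 and 11.9 in grafts, higher in every graft. The proline tRNA mt-Tp fell by 2.02 (1724, 1852 and 2194 against 503.2, 470.3 and 440.2, adjusted p = 1.25e-05) and the tyrosine tRNA mt-Ty fell by 2.29 (24.7, 12.2 and 17.7 against 3.01, 5.82 and 0.99, adjusted p = 0.0232). mt-Ty reached 10 in at least 3 libraries only through those before grafting, a filter that favours a fall. Reads of a tRNA gene can also come from precursors that have not been cut.

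Other enzymes that bring electrons to ubiquinone, or make ubiquinone, were mostly lower in grafts. Of 22 genes chosen 19 are in the table, and 18 fell with a median of -1.25. Chdh, the choline dehydrogenase, had 2140, 3763 and 2227 normalized counts before grafting and 23.1, 22.3 and 41.5 in grafts, and fell by 6.51 on the log2 scale (adjusted p = 4.79e-06). Prodh, the proline dehydrogenase, fell by 3.58 (1121, 1483 and 1053 against 112.5, 123.2 and 71.2, adjusted p = 2.00e-05). Coq10b, a ubiquinone-binding protein, at 0.33, did not pass the test (adjusted p = 0.218). No test compared this list with the members.

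Assembly factors whose names fall outside the members' prefixes were also mostly lower. Of 38 chosen 21 are in the table, 15 fell and 1 rose, with a median of -0.82. Lyrm7 and Bcs1l, which insert the Rieske protein into complex III, fell, with log2 fold changes of -1.50 and -1.32 (67.1, 86.1 and 76.7 against 26.1, 27.2 and 25.7 for Lyrm7, and 263.3, 322.1 and 294.1 against 143.6, 113.5 and 96.9 for Bcs1l). Uqcc2, needed for the making of cytochrome b, had 272.1, 356.6 and 236.1 before grafting and 554.4, 493.6 and 435.2 in grafts. It rose by 0.79 (adjusted p = 0.0160), and this call was lost in 3 of 6 fits with 1 library left out, those without library 1 or 3 before grafting or graft 2, and also under ribosomal protein scaling.

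Of 33 genes chosen for the transcription, RNA handling and maintenance of mitochondrial DNA 16 are in the table, 7 fell, none rose and 9 did not pass the test. The share that fell is near the 39.2% of all tested genes called lower, and the median was -0.67. All 16 had a negative log2 fold change. Hsd17b10, part of the mitochondrial RNase P that cuts tRNAs from the long transcript, fell by 1.31 (1105, 1443 and 1195 against 482.1, 534.4 and 485.7). The DNA exonuclease Mgme1, in the list for maintenance, fell by 0.92. The mitochondrial RNA polymerase Polrmt, at -0.38 (452.6, 467.0 and 410.2 against 340.5, 316.2 and 363.0), did not pass the test (adjusted p = 0.0733) and is named after its values were seen.

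Of 15 nuclear regulators of respiratory genes chosen 11 are in the table, and 5 fell and 5 rose, near the shares of all tested genes (39.2% lower and 41.3% higher), while ribosomal protein scaling gave 6 that fell and 1 that rose. Ppara, a nuclear receptor of fatty acid oxidation, fell by 5.35 (128.2, 251.2 and 143.6 against 0.00, 16.5 and 2.97, adjusted p = 0.00410). The coactivator Ppargc1a, known for driving the making of mitochondria, fell by 3.76 (166.6, 122.6 and 148.5 against 9.04, 6.79 and 14.8, adjusted p = 9.79e-05). In the other direction, Perm1 rose by 1.56 (59.2, 42.5 and 46.2 against 143.6, 172.6 and 126.6, adjusted p = 0.00154) and Pprc1, a relative of Ppargc1a, by 0.80 (661.6, 600.7 and 679.7 against 1028, 1121 and 1249, adjusted p = 0.00113). The groups did not overlap for any of these 4. Ppara and Ppargc1a reached 10 in at least 3 libraries only through those before grafting, a filter that favours a fall. Nrf1 itself, whose word was searched in the promoters, rose by 0.60 (adjusted p = 0.00486), and Yy1, at 0.27, did not pass (adjusted p = 0.0995). Gabpb1, the partner of GABPA, rose by 0.60 (adjusted p = 0.00901). Esrrg, of the ERR family, fell by 2.52 (21.7, 31.4 and 22.6 against 1.00, 4.85 and 6.92, adjusted p = 0.0152), and passed the filter only through the libraries before grafting. All of Nrf1, Yy1, Gabpb1 and Esrrg are named after their values were seen.

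The paralogs left out of the members are given as ratios to the genes they resemble. Ndufa4l2, a hypoxia-induced relative of Ndufa4, stood at 7.54, 5.72 and 6.74 per 100 Ndufa4 before grafting and at 97.2, 109 and 58.3 in grafts. Cox8b, an isoform of Cox8a found in muscle and brown fat, stood at 8.71, 14.1 and 6.83 per 100 Cox8a before grafting and at 0.305, 0 and 2.23 in grafts. Both ratios separate the groups, in opposite directions.

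**Figure D5:**
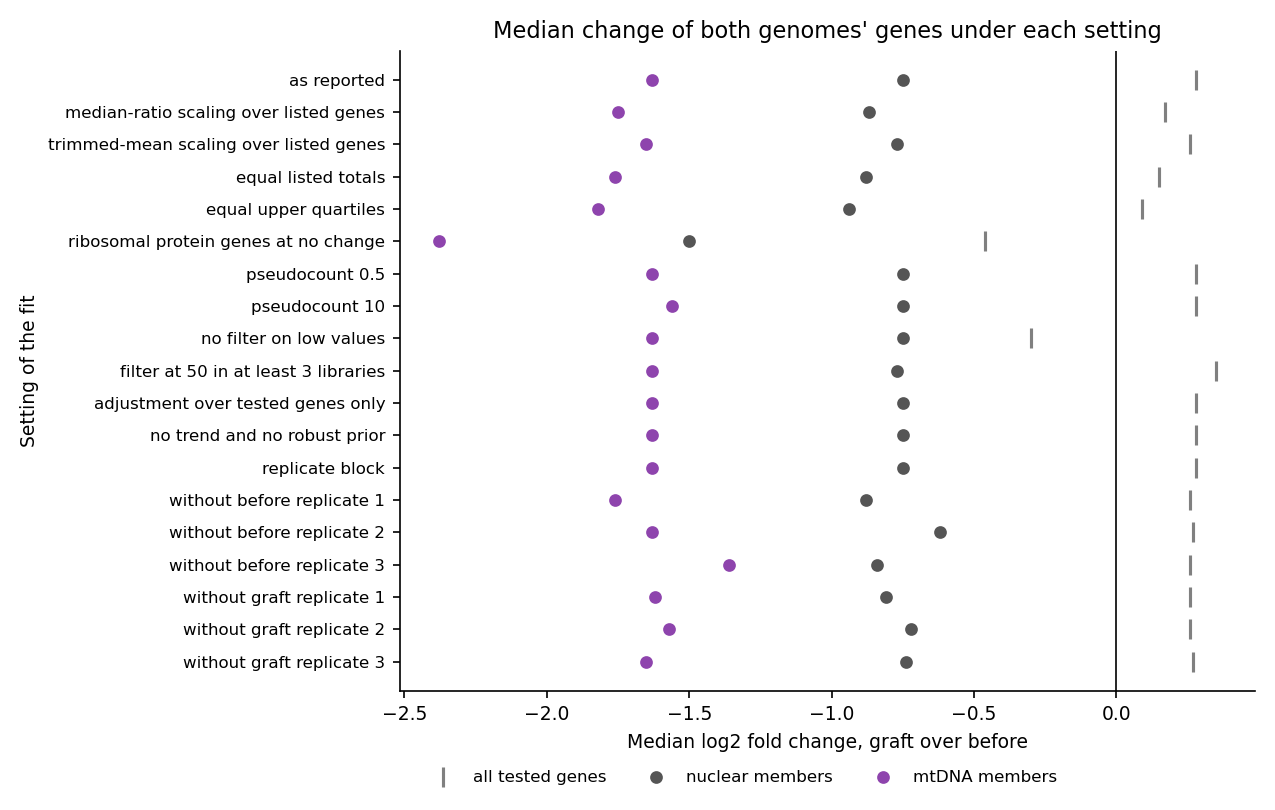
Each line of the y axis is a setting of the fit and the x axis is the median log2 fold change, grafts over before grafting, of the 75 nuclear members (grey points), the 12 mitochondrially encoded members (purple points) and all tested genes (bars). In every setting drawn, the mitochondrial median lies below the nuclear one and the nuclear one below that of all tested genes; scaled to ribosomal protein genes they stand at -2.38, -1.50 and -0.46.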

How the data were processed

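Total RNA of fat was sequenced, with 3 libraries per group. The authors deposited a signal per gene: reads divided by a library's size factor. This was read from the values, of which 100% per library were whole multiples of a step (0.96979 to 1.01304, tolerance 0.01 reads). Deposited gene lengths (other) were used for levels per kilobase. The submitters' processing notes name Bowtie 0.12.2, HISAT2 2.0.5, mm8 and mm9, but 12029 of 12163 listed genes lay within 1000 bp of their GENCODE M21 (GRCm38) position. The counter, the use of strand, the normalization tool and the selection of listed genes were not given in the sources used here, and the full depth is unknown.

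Log2(value + 1) was fitted with limma 3.58.1 (R 4.3.3; trend, robust, group as the only term, two-sided) for 10854 genes with at least 10 in at least 3 libraries. The Benjamini-Hochberg adjustment ran over 55462 annotated or listed genes, with unlisted genes entered as not different, and the threshold was 0.05. The variance prior rests on genes selected for a difference, which limits each p. The fit was tested on simulated data. Tables were handled in Python 3.11.15 with pandas 2.3.3 and numpy 2.4.6. Fold changes are on the log2(value + 1) scale, which understates low genes, and percentages of a level are ratios of group means. Word sharing compared 50-base words of annotated transcripts.

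Members, lists and roles were chosen with earlier results of these data known. Named were every mitochondrial member, every member called higher or not called, in each complex and among assembly factors the 3 largest called falls and the smallest change, isoform pairs, and the 2 largest called changes in each direction per other list; further genes are named by role. The values of 1 member are not reported here. Alternatives covered scaling, pseudocount, filter, adjustment, variance prior, replicate block and each library left out. A count model had been planned as an alternative and was not run.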

Additional observations from a re-analysis of the deposited data

How the results depend on the processing

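Of 59 nuclear members called lower, 40 were called in all 18 alternatives, and so were 9 of 11 mitochondrial ones. Atp5d, Atp5h, Cox15, Uqcrh, Ndufb7 and Ndufc2 were called in only 1 of 6 fits with 1 library left out. The count was 2 of 6 for Cox5a, Ndufa12, Ndufa5, Ndufaf7 and Ndufb11, and 3 of 6 for Cycs, Cox7c, Ndufa7, Ndufaf4 and Uqcrq. For Ndufb4, Cox6b1 and Cox6c it was 4 of 6. With each library left out in turn, 41 to 54 nuclear members (41 without graft 2 or without graft 3) and 10 to 12 mitochondrial members were called lower, and the nuclear count was 43 without the trend and the robust prior and 72 under ribosomal protein scaling. The count of nuclear members called higher was 0 under ribosomal protein scaling and 2 when adjusted over tested genes only. Over all tested genes, 4251 were called lower and 4479 higher as reported, and 5448 and 1934 under ribosomal protein scaling, which moves the median of all tested genes from 0.28 to -0.46 (0.17 with median ratios, 0.15 with equal totals, 0.09 with equal upper quartiles). In complex IV, 6 nuclear members were called lower without the trend and the robust prior, and 6 to 11 with each library left out. The difference between the median log2 fold changes of the genomes ranged from -1.01 to -0.53 with each library left out. The mitochondrial sum per 100 of the nuclear sum was 591 and 309, before grafting and in grafts, per kilobase, and 275 and 129 without the most abundant members. Among assembly factors outside the members, 0 were called higher under ribosomal protein scaling, 2 when adjusted over tested genes only, and 0 to 1 with each library left out. In the list for transcription, RNA handling and maintenance of mitochondrial DNA, 13 were called lower with median ratios and 15 with equal totals. The count was 16 each with equal upper quartiles, under ribosomal protein scaling and when adjusted over tested genes only. Regulators called higher were 3 with equal totals, 3 with equal upper quartiles and 1 under ribosomal protein scaling. Cox7a2l reversed to -0.37 (adjusted p = 0.0563) under ribosomal protein scaling. Where no construction of the setting shows it, the cause was not tested.

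No label used here says whether replicate numbers pair the libraries. Correlations of deviations were -0.157, -0.127 and 0.041 for libraries of the same number and -0.066 to 0.169 for the others. Such correlations cannot show whether libraries were paired. With a replicate block, 46 nuclear members, 11 mitochondrial members and 7 nuclear members of complex IV were called lower. The planned edgeR and DESeq2 alternatives were not run. Only listed genes can be scaled or tested, and the full depth is unknown, which limits what can be said of genes with low values such as Cox6a2.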

Other observations

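Across the 75 nuclear members, the log2 fold change had a Spearman correlation of -0.28 with the level before grafting, -0.19 with that level per kilobase and -0.09 with the deposited gene length. These are descriptions across genes of the same 6 libraries, and the level before grafting enters both sides of the first and of the second pair of values.

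Of the nuclear members, 6 share over 20% of their 50-base words with other annotated genes: Atp5o (41.6%), Ndufb6 (31.6%), Cycs (26.1%), Uqcrb (25.5%), Cox7c (22.1%) and Ndufs5 (21.7%). How reads of shared words were assigned is unknown.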
